A study of Mus musculus with 4 samples.

Results

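Chemokine ligands are small secreted proteins that attract cells carrying the matching receptor. The 34 genes described here are those of the array with a single symbol of the Ccl, Cxcl, Xcl or Cx3cl series, out of 19938 named genes, and each is given by its probe set with the highest mean. Gene expression was measured on 4 arrays with biotin-labelled total RNA of group 3 innate lymphoid cells (ILC3) that carry CCR6, sorted out of mesenteric lymph nodes that came from naive C57BL/6 mice. The gate was CD127+, CD90.2+, CCR6+ and ST2-, and the 4 samples, numbered 1 to 4, form 1 group with no second cell type or condition beside it. The sources used here do not give age, sex or the number of animals behind a sample, so the spread between arrays may be partly technical.

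The family is divided by the spacing of the first cysteines into CC, CXC, CX3C and XC ligands, and all act through G protein-coupled receptors. Some members are made constantly by the stroma of lymphoid organs and place lymphocytes in their zones, whereas others are made after an inflammatory signal. ILC3 of the CCR6+ kind lie near B cell follicles and in the gut wall, where ligands of their own receptors are made by neighbouring cells. In RNA of a sorted population, fewer cells of a type and less RNA per cell cannot be told apart.

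Levels are log2 values after RMA (robust multi-array average), and errors are the SD over 4 arrays (n = 4). A probe set's level depends on how well it binds, so a gene is read here relative to background alone. Background was given by 1237 genes of olfactory, vomeronasal, trace amine and bitter taste receptors, with a median of 4.25, and the detection p of a gene is the share of these genes that reach its mean. A gene is called above background at an adjusted p under 0.05 (Benjamini-Hochberg over all named genes), which corresponded to a mean of at least 6.37. Because 4 of 15 genes typical of other organs also passed, the highest of them on each array served as a stricter line, at 7.42, 7.40 and 7.40 on arrays 1, 2 and 4 (Ckm of muscle) and at 7.13 on array 3 (Apoa1 of liver).

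Medians over all probe sets, which RMA brings close together, were between 5.99 and 6.03. The 3 genes of the gate, Il7r, Thy1 and Ccr6, and 8 of 8 measured ILC3 genes were above background. The share over all named genes was 46.2%, which also stands beside the marker counts that follow. Markers of B cells were above background in 11 of 11 cases, of T cells in 11 of 12, of natural killer (NK) cells and ILC1 in 7 of 12, of dendritic cells in 3 of 10, of monocytes and macrophages in 2 of 11, of stroma and endothelium in 4 of 12, of epithelium in 1 of 9, and of neutrophils and mast cells in 0 of 10.

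Of the 34 chemokine ligand genes, 10 (29.4%) were above background, beside 46.2% of all named genes. These were Ccl5, Cxcl10, Cx3cl1, Xcl1, Ccl17, Ccl19, Cxcl1, Ccl22, Cxcl9 and Cxcl17, so that 4 of 19 CC genes, 4 of 13 CXC genes and the sole CX3C and XC genes were called. The median level of the family was 5.48, beside 6.16 for all named genes. On the stricter line, 3 of 34 (8.82%) lay above every gene of other organs on every array, beside 25% of all named genes, namely Ccl5, Cxcl10 and Cx3cl1. An unadjusted detection p under 0.05 was reached by 14 members, beside 57.2% of all named genes, and 8 were called with olfactory receptor genes alone as background, beside 43.1%. Looser rules called 11 members (above the 95th percentile of background genes on every array, beside 54.4% of all named genes), 12 (limma against that percentile, beside 53.9%) and 31 (limma against the median of background genes, beside 89.2%).

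**Figure D1:**
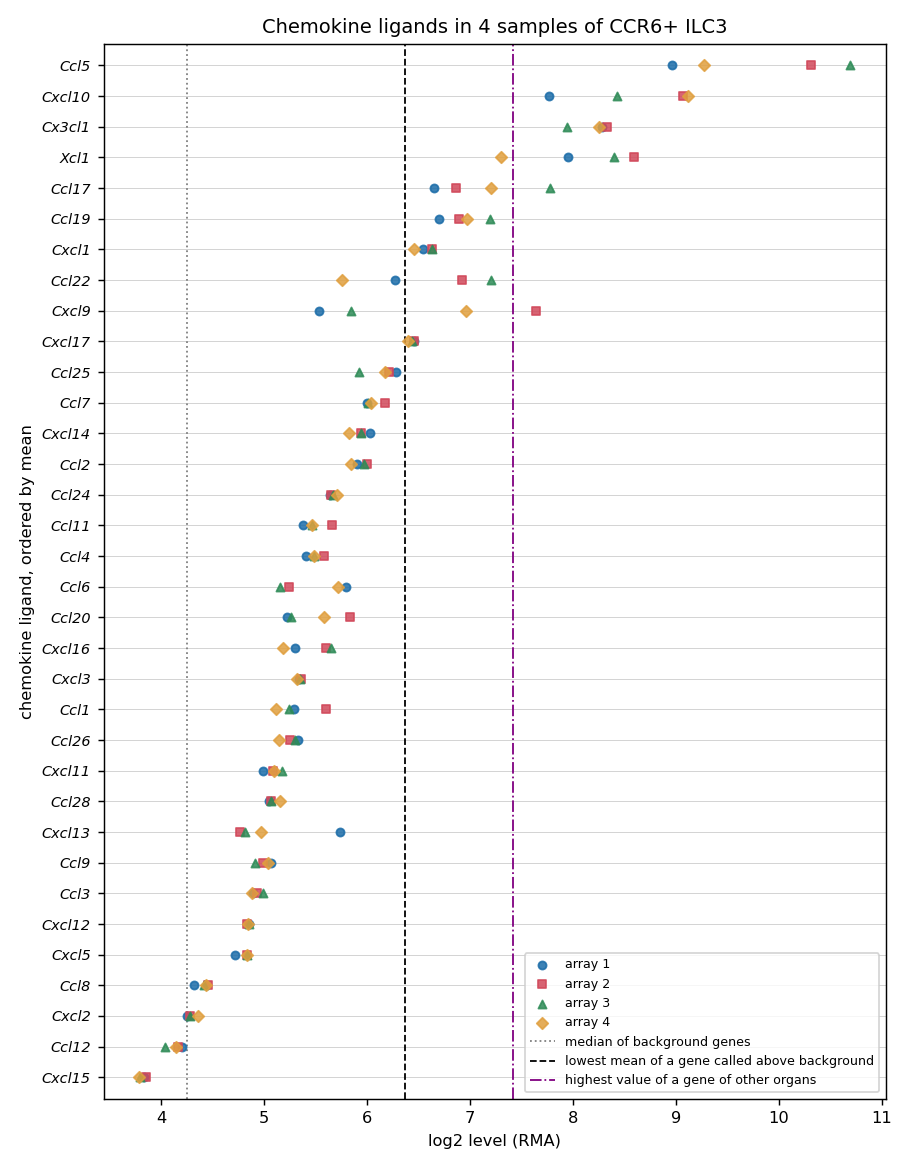
Log2 level of each of the 34 chemokine ligand genes (rows, ordered by mean) on each of the 4 arrays (marker shape and colour), with the median of background genes (dotted line, 4.25), the lowest mean of a gene called above background (dashed line, 6.37) and the highest value of a gene of other organs (dash-dotted line, 7.42). The markers of Ccl5, Cxcl10, Ccl22 and Cxcl9 are spread widely, whereas most genes left of the dashed line show all 4 markers close together.

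Among the inflammatory CC ligands, which attract monocytes, T cells and NK cells, Ccl5 was the 1 of 9 genes above background. Ccl5, also known as RANTES, is a typical product of activated T cells and NK cells. Its level was 8.96, 10.31, 10.69 and 9.27 on arrays 1 to 4, with a mean of 9.81 ± 0.83 and an adjusted detection p of 0.0108. Arrays 2 and 3 were thus higher than both others, by at least 1.04 log2 units, and the highest array exceeded the lowest 3.32-fold. No background gene reached its mean. Ccl3 and Ccl4, which encode the MIP-1 proteins and are often made by the same activated cells, were at 4.92 ± 0.05 and 5.49 ± 0.07 and lay above the 95th percentile of background genes on 0 arrays. That percentile was between 5.73 and 5.84 on the 4 arrays.

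The remaining inflammatory CC genes were not called either. Ccl7, a monocyte attractant, was at 6.00, 6.17, 6.01 and 6.03, with an adjusted detection p of 0.0677. Ccl2, the main monocyte attractant MCP-1, was at 5.90, 6.00, 5.97 and 5.85, with an adjusted detection p of 0.0778. Both genes were above the 95th percentile of background on all 4 arrays without passing the detection test, and the arrays of each spanned at most 0.17 log2 units. Ccl6 was at 5.48 ± 0.33, Ccl8 at 4.40 ± 0.06 and Ccl12 at 4.13 ± 0.07, and Ccl9 lay between 4.91 and 5.06.

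Xcl1, which encodes lymphotactin and attracts cross-presenting dendritic cells that carry XCR1, was above background. Its level was 7.95, 8.60, 8.40 and 7.30, with a mean of 8.06 ± 0.58 and an adjusted detection p of 0.0143. As for Ccl5, arrays 2 and 3 were higher than both others, here by at least 0.45 log2 units, and array 4 lay below the highest gene of other organs. Lymphocytes of the NK, ILC1 and T cell kinds are known sources of both Ccl5 and Xcl1. Means of the NK and ILC1 marker list were 6.55, 6.61, 6.33 and 6.19 on arrays 1 to 4, and those of the T cell list were 7.71, 7.69, 7.94 and 7.69. In neither list mean were arrays 2 and 3 both above the other arrays. Among single called markers they were so in 2 of 11 of the T cell list and 1 of 7 of the NK and ILC1 list. The highest NK and ILC1 markers, Klrk1, Klrb1c and Nkg7, were at 8.28 ± 0.61, 8.02 ± 0.05 and 7.87 ± 0.75, and the highest T cell markers were Lat at 10.03 ± 0.12, Cd3e at 8.91 ± 0.22 and Cd3g at 8.77 ± 0.50. The NK cell transcription factor gene Eomes, at 4.80 ± 0.08, was not called. The part of such cells in the levels of Ccl5 and Xcl1 was not tested.

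The ligands of CXCR3, which interferon induces and which attract effector T cells and NK cells, were called in 2 of 3 cases. Cxcl10, or IP-10, was at 7.77, 9.07, 8.42 and 9.11, with a mean of 8.59 ± 0.64 and an adjusted detection p of 0.0143. Cxcl9, or MIG, was at 5.53, 7.64, 5.84 and 6.96, with a mean of 6.49 ± 0.98 and an adjusted detection p of 0.0437. Both genes were higher on arrays 2 and 4 than on both others, Cxcl10 by at least 0.64 and Cxcl9 by at least 1.12 log2 units, and Cxcl9 was not above the 95th percentile of background on array 1. The range of Cxcl9 was 4.30-fold, the widest among the 34 genes. Its call was lost without array 2, at a mean of 6.11, and without array 4, at 6.34, while Cxcl10 was called whichever array was left out. Cxcl11, the remaining ligand of CXCR3, was at 5.08 ± 0.08 and not called. In RefSeq's gene table of the C57BL/6J assembly it is listed as a transcribed pseudogene, whereas Cxcl9 and Cxcl10 are near neighbours on chromosome 5 with 1 protein-coding gene between them.

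Interferon response genes were called in 7 of 10 measured cases, beside 46.2% of all named genes. The mean of the list was 7.26, 7.25, 7.47 and 7.68 over the arrays in order. Over the called members alone the mean was 8.14, 8.20, 8.35 and 8.68. The list was highest on array 4 by either mean, as was Cxcl10, at 9.11 there beside 9.07 on array 2. Cxcl9 was highest on array 2, where the mean of all measured list members was lowest. The mean of the called members was lowest on array 1, as Cxcl9 was. Rtp4, at 9.55, 9.84, 9.81 and 10.29, and Bst2, at 9.62, 9.78, 9.66 and 10.08, had the highest means of the list. Of the 7 called members, 4 (Rtp4, Bst2, Ifit3 and Oasl2) were higher on arrays 2 and 4 than on both others, as Cxcl9 and Cxcl10 were. Ifit3 was at 8.77 ± 0.09 and Oasl2 at 7.26 ± 0.40. In Rtp4 and Ifit3 array 2 lay only slightly above array 3, at 9.84 beside 9.81 and at 8.79 beside 8.74. The other 3 called members were highest on arrays 3 and 4. Being highest on arrays 2 and 4 was not particular to this list, since 4 of the 8 called ILC3 genes were so too. Usp18, at 7.72, 7.31, 7.97 and 8.53, was lowest on array 2. Means of the monocyte and macrophage list, cells that also make CXCR3 ligands, were 6.07, 5.97, 6.05 and 5.74, led by Lyz2 at 8.22 ± 0.73, Cd68 at 6.94 ± 0.46 and Adgre1 at 6.32 ± 0.46, the last of which was not called. These differed in their order, since Cd68 was at 6.45, 7.51, 7.09 and 6.72, highest on array 2 like Cxcl9, whereas Lyz2 was at 9.11, 7.76, 8.51 and 7.50, highest on array 1, and Adgre1 was highest on array 3. Whether either list bears on the CXCR3 ligands was not tested.

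The sequences just upstream of Cxcl10 and Cxcl9 are shown because both genes were higher on the same arrays. They are the 250 bases before the RefSeq start on build GRCm38.p6, printed on the gene's own strand, at chr5:92348890-92349139 and chr5:92328080-92328329, both on the minus strand. Capitals mark matches, on either strand, to 4 motifs. These are an interferon-stimulated response element (ISRE, GAAANNGAAA), a gamma-activated site (GAS, TTCNNNGAA), an NF-kappaB site (GGGNNNTTCC) and a STAT6 type site (TTCNNNNGAA).
Cxcl10: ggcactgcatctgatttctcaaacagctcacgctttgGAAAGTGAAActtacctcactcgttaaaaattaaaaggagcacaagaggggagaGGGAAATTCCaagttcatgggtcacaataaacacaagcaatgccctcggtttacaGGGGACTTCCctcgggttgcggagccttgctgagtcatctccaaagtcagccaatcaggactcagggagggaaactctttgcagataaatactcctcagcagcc
Cxcl9: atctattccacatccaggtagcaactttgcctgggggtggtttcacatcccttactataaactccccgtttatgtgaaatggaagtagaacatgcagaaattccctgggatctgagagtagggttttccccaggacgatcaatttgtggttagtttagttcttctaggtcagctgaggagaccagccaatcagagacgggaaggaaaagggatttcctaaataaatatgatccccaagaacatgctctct

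Upstream of Cxcl10 the ISRE letters lie 213 to 204 bases before the start and the NF-kappaB letters 159 to 150 and 104 to 95 bases before it. None of the 4 motifs matched in the window of Cxcl9, which says only that these letters are not in it. A promoter entry was found for 23 of the 34 genes, 8 of them called, and Ccl5 and Cxcl17 have none. Over 32841 promoter windows of the same length, ISRE letters were in 2.98%, GAS letters in 7.02%, NF-kappaB letters in 4.65% and STAT6 letters in 5.85%. Among the 23 chemokine genes, ISRE letters were upstream of 3 (Ccl19, Cxcl10 and Cxcl14), NF-kappaB letters of 7 (Ccl1, Ccl20, Ccl9, Cxcl1, Cxcl10, Cxcl2 and Cxcl3), GAS letters of Ccl17 and Cxcl14, and STAT6 letters of Ccl17. Of the 7 genes with NF-kappaB letters, Cxcl1 and Cxcl10 were above background in these cells. A match is a description of letters and not a site.

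Both ligands of CCR4, a receptor of regulatory and type 2 helper T cells, were above background. Ccl17, or TARC, was at 6.65, 6.87, 7.78 and 7.20, with a mean of 7.12 ± 0.49 and an adjusted detection p of 0.0221. Ccl22, or MDC, was at 6.27, 6.92, 7.20 and 5.76, with a mean of 6.54 ± 0.65 and an adjusted detection p of 0.0412. Array 3 was the highest for both genes. The lowest array was 1 for Ccl17 and 4 for Ccl22, where Ccl22 lay under the 95th percentile of background. Ccl22 was not called without array 3, at a mean of 6.31, whereas Ccl17 was called whichever array was left out.

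Dendritic cells are a known source of Ccl17 and Ccl22. Means of the dendritic cell marker list were 5.72, 5.92, 5.85 and 5.72 on arrays 1 to 4, and its highest members were Batf3 at 8.94 ± 0.19, Fscn1 at 7.33 ± 0.71 and Zbtb46 at 6.47 ± 0.07. Fscn1, an actin-bundling gene of mature dendritic cells, was at 6.66, 7.69, 8.16 and 6.82, higher on arrays 2 and 3 than on both others, as was Ccl22. Flt3 at 6.26 ± 0.16, Itgax at 4.83 ± 0.16 and Clec9a at 3.92 ± 0.10 were not called. The contribution of such cells to the CCR4 ligands was not tested.

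The upstream windows of Ccl17 and Ccl22 are shown because the 2 genes share a receptor and a locus, with Cx3cl1 as the sole protein-coding gene between them on chromosome 8. They lie at chr8:94810203-94810452 and chr8:94745434-94745683 on the plus strand of GRCm38.p6 and have capitals for the same 4 motifs.
Ccl17: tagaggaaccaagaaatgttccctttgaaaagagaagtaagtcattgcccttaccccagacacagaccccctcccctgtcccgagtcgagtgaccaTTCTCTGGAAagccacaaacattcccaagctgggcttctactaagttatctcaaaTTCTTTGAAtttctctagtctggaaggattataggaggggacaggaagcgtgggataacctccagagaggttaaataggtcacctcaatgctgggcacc
Ccl22: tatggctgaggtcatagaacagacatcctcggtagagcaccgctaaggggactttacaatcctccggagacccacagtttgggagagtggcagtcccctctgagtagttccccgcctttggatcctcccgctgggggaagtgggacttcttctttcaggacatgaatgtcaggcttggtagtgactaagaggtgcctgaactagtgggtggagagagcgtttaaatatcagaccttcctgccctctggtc
The STAT6 letters of Ccl17 lie 154 to 145 bases and its GAS letters 99 to 91 bases before the start, and the window of Ccl22 holds none of the 4 motifs.

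Cx3cl1 encodes fractalkine, a ligand that stands on the cell membrane on a mucin stalk and can be shed. It was at 8.28, 8.33, 7.94 and 8.25, with a mean of 8.20 ± 0.18 and an adjusted detection p of 0.0143. All arrays lay above the genes of other organs and within 0.39 log2 units, so that Cx3cl1 varied less than Ccl17 and Ccl22 on either side of it on the chromosome. Endothelium is a known source of Cx3cl1, and means of the stroma and endothelium list were 5.97, 5.98, 5.89 and 5.92. Pecam1, its highest member, was at 8.53, 8.53, 8.17 and 8.53 and thus also lowest on array 3. Its value was exactly the same on arrays 1, 2 and 4. Col1a1 at 6.93 ± 0.09 and Col1a2 at 6.56 ± 0.06 followed. Lymphocytes also carry Pecam1, and the endothelial cadherin gene Cdh5, at 5.04 ± 0.06, was not called. The part of endothelium in the level of Cx3cl1 was not tested. Cxcl16, the other membrane-bound ligand, was at 5.43 ± 0.23 and not called.

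Of the 6 ligands that place lymphocytes in lymphoid and mucosal tissue, 1 was above background. Ccl19, a ligand of CCR7 made by stromal cells of the T cell zone and by mature dendritic cells, was at 6.70, 6.90, 7.19 and 6.97, with a mean of 6.94 ± 0.20 and an adjusted detection p of 0.0260. Its 5 probe sets had means of 6.94, 6.46, 6.365, 6.365 and 6.20, and the probe sets at 6.365 were identical on every array. Those at 6.365 and 6.20 lay under the lowest mean of a called gene, 6.366. All 5 probe sets were lowest on array 1 and highest on array 3, as Ccl17 was. The mouse genome holds near-identical copies of this gene, so which copy was read is uncertain, and the gene was still called when its probe sets were averaged.

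Ccl25, which attracts lymphocytes to the small intestine through CCR9, was at 6.28, 6.21, 5.92 and 6.18, with an adjusted detection p of 0.0636. Its mean of 6.15 ± 0.16 was the highest among the genes not called, and its second probe set had a mean of 5.57 ± 0.10. Ccl20, the ligand of CCR6 and thus of the receptor used for the sort, was at 5.22, 5.83, 5.26 and 5.58, above the 95th percentile of background on array 2 alone. Cxcl13, which draws CXCR5+ cells to B cell follicles, was at 5.74, 4.76, 4.81 and 4.97, above that percentile on array 1 alone. The per-array values of Ccl20 and Cxcl13 were chosen for display after they were seen. Cxcl12, the ligand of CXCR4, was at 4.84 ± 0.01 and Ccl28, a mucosal ligand of CCR10, at 5.08 ± 0.05, with all 4 arrays of each gene within 0.11 log2 units.

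The CXC ligands that attract neutrophils, most of them through CXCR2, were called in 1 of 5 cases. Cxcl1, or KC, was at 6.55, 6.63, 6.63 and 6.46, with a mean of 6.56 ± 0.08 and an adjusted detection p of 0.0412. It lay under the highest gene of other organs on all 4 arrays. Cxcl3 at 5.34 ± 0.02, Cxcl5 at 4.80 ± 0.06, Cxcl2 at 4.29 ± 0.05 and Cxcl15 at 3.81 ± 0.03 were not called, although Cxcl2, Cxcl3 and Cxcl15 flank Cxcl1 in 1 cluster on chromosome 5. Cxcl15 had the lowest mean of the family, and 81.0% of background genes reached it.

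Cxcl17, a mucosal CXC ligand, was at 6.46, 6.46, 6.43 and 6.39, with a mean of 6.43 ± 0.03 and an adjusted detection p of 0.0448. It had the weakest call of the family and lost it without array 3 and with olfactory receptor genes alone as background. Cxcl14, a ligand of epithelium and skin, was at 6.03, 5.94, 5.94 and 5.82, with an adjusted detection p of 0.0778. The eotaxins, which attract eosinophils, were called in 0 of 3 cases by the detection test, by limma against the 95th percentile of background and at an unadjusted detection p under 0.05. Ccl24 was at 5.64, 5.65, 5.67 and 5.71, Ccl11 at 5.38, 5.66, 5.46 and 5.46, and Ccl26 at 5.25 ± 0.08. Ccl1, a ligand of CCR8, was at 5.31 ± 0.21 and not called.

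The called ligands varied more between arrays than genes above background did at the median. Their median SD was 0.535, beside 0.168 for all genes above background, and 6 of the 10 exceeded an SD of 0.476, which by construction 5.01% of genes above background do. These were Ccl5, Cxcl10, Xcl1, Ccl17, Ccl22 and Cxcl9, whereas Cx3cl1, Ccl19, Cxcl1 and Cxcl17 were at 0.202 or less. The spread followed no single order of arrays, although the mean deviation of the 10 ligands was -0.36, 0.30, 0.18 and -0.11 on arrays 1 to 4. The lowest array was array 1 in 5 ligands, array 4 in 4, array 3 in 1 and array 2 in 0. In 4 genes (Ccl5, Xcl1, Ccl22 and Cxcl1) arrays 2 and 3 were the highest, in Cxcl9 and Cxcl10 arrays 2 and 4, in Ccl17 and Ccl19 arrays 3 and 4, and in Cx3cl1 and Cxcl17 arrays 1 and 2. In no called ligand were arrays 1 and 3 both above the others. The mean of the B cell markers, at 8.90, 7.95, 9.08 and 7.83, was higher on arrays 1 and 3 than on both others. Cxcl9 and Cxcl10 had the reverse, with arrays 1 and 3 both below arrays 2 and 4. The part of B cells in these differences was not tested. The highest B cell markers were Cd79b at 9.84 ± 0.55, Pou2af1 at 9.19 ± 0.35 and Cd79a at 8.84 ± 0.78. On arrays 2 and 4 alone, 8 ligands were called, without Ccl22 and Cxcl17, beside 44.3% of all named genes, and on arrays 1 and 3 alone 9, without Cxcl9, beside 48%. The arrays were split after the data were seen. Among the 24 ligands not called, the median SD was 0.0721, beside 0.0772 for all genes not called.

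**Figure D2:**
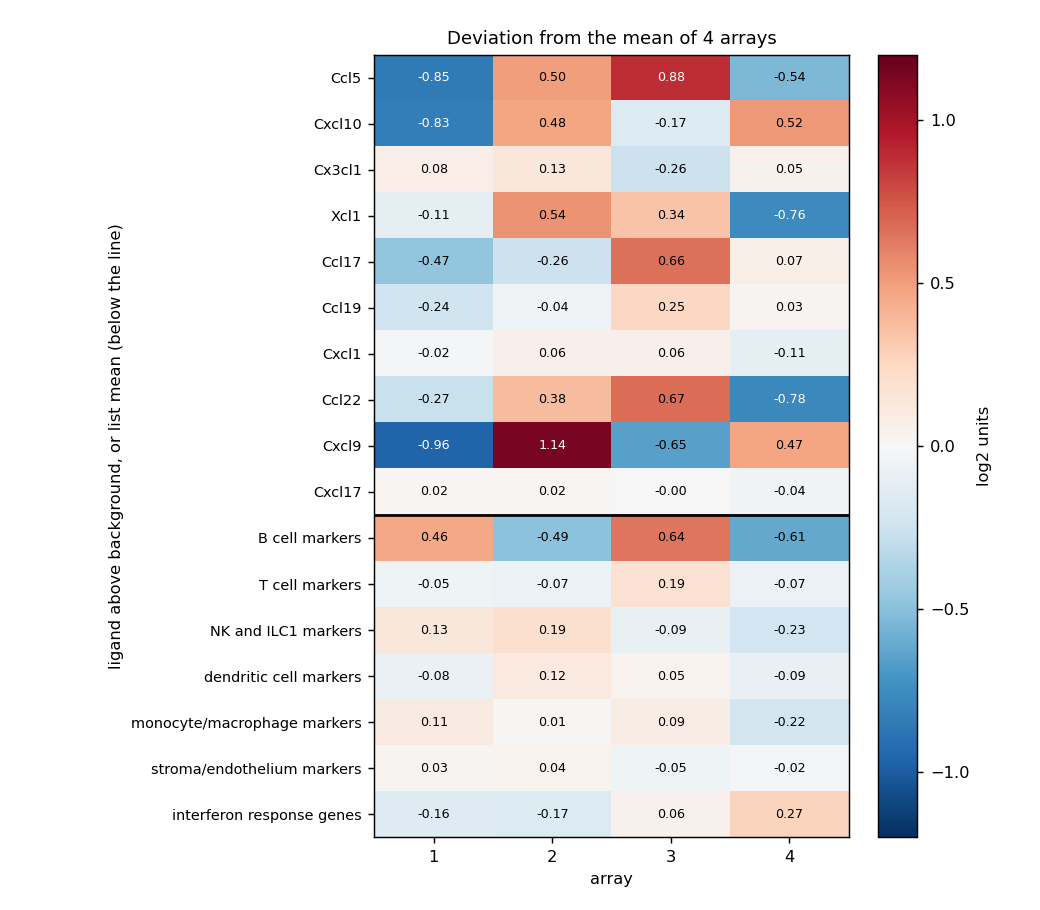
Deviation in log2 units of each of the 10 ligands above background (rows over the line) and of the mean of 7 marker and response lists (rows under it) from its mean over the 4 arrays (columns), red above and blue below. Ccl5, Xcl1 and Ccl22 are red on arrays 2 and 3, Cxcl9 and Cxcl10 on arrays 2 and 4, and B cell markers on arrays 1 and 3.

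**Figure D3:**
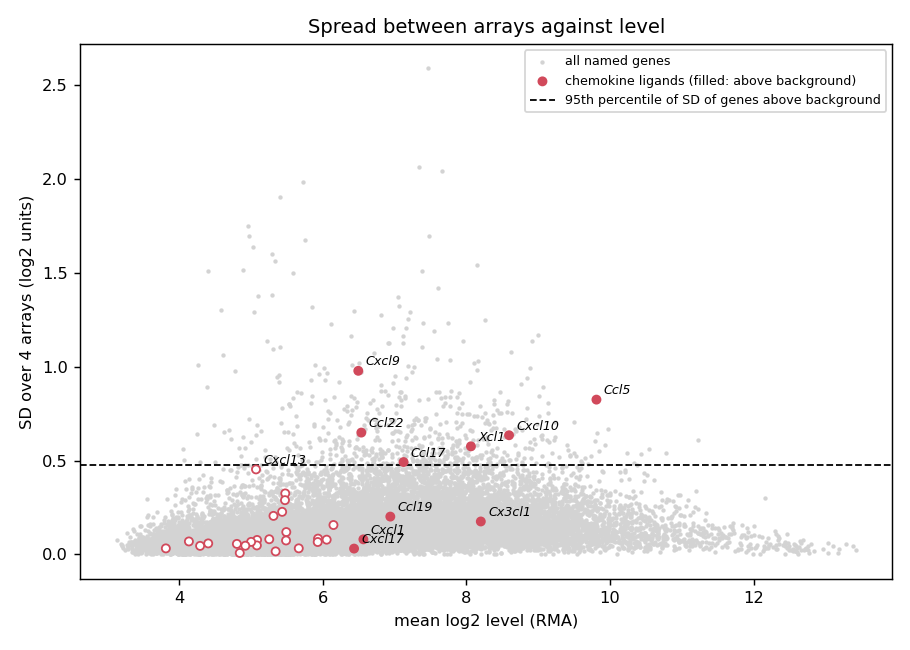
SD over the 4 arrays against mean log2 level for all 19938 named genes (grey) and the 34 chemokine ligands (red, filled where above background), with the 95th percentile of the SD of genes above background (dashed line, 0.476). Of the filled points 6 lie over the line, and Cxcl9 is the topmost with an SD of 0.98.

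Receptors for these ligands included genes far above background. Of 22 measured receptors, 11 were called (50%), beside 46.2% of all named genes. Above the genes of other organs on every array lay 7 receptors, beside 25% of all named genes. Cxcr4 was at 11.33 ± 0.09, Cxcr6 at 10.78 ± 0.10, Ccr6 at 10.49 ± 0.09, Ccr7 at 9.06 ± 0.26, Cxcr5 at 8.58 ± 0.33, Cx3cr1 at 8.10 ± 0.25 and Ccr8 at 7.87 ± 0.23. Cxcr4 retains cells near CXCL12-rich stroma, Ccr7 and Cxcr5 lead them to T cell zones and B cell follicles, and Ccr6 and Cxcr6 are typical of this ILC3 subset. Ccr2 at 7.17 ± 0.09, Ccrl2, an atypical receptor, at 6.81 ± 0.18, Cxcr3 at 6.68 ± 0.56 and Ccr10 at 6.52 ± 0.09 were called but did not clear the stricter line on all arrays.

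Ligands were then set beside their known receptors in 35 pairs. In 11 pairs the receptor was called and the ligand was not, in 4 pairs both were, in 6 the ligand alone and in 14 neither. The receptors Cxcr4, Cxcr6, Ccr6 and Cxcr5 were above background without their ligands Cxcl12, Cxcl16, Ccl20 and Cxcl13. Both partners were called for Cx3cl1 and Cx3cr1, for Ccl19 and Ccr7, and for Cxcl9 and Cxcl10 with Cxcr3. Cxcr3 was at 6.14, 7.28, 7.02 and 6.27, higher on arrays 2 and 3 than on both others. The same pair of arrays was highest for Ccl5 and not for its own ligands Cxcl9 and Cxcl10. Array 2 was the highest array for both Cxcr3 and Cxcl9.

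The receptors of the other called ligands were not above background. Xcr1, the receptor for Xcl1 on dendritic cells, was at 4.63 ± 0.10. Ccr4, the receptor for Ccl17 and Ccl22, was at 5.71 ± 0.10. Cxcr2, the neutrophil receptor for Cxcl1, was at 4.64 ± 0.27, and Ccr1 and Ccr3, which bind Ccl5, were at 4.77 ± 0.15 and 4.95 ± 0.08. For 6 pairs, then, a ligand was called in RNA in which the named receptor was not. These calls are for the sorted population as a whole and not for single cells.

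**Figure D4:**
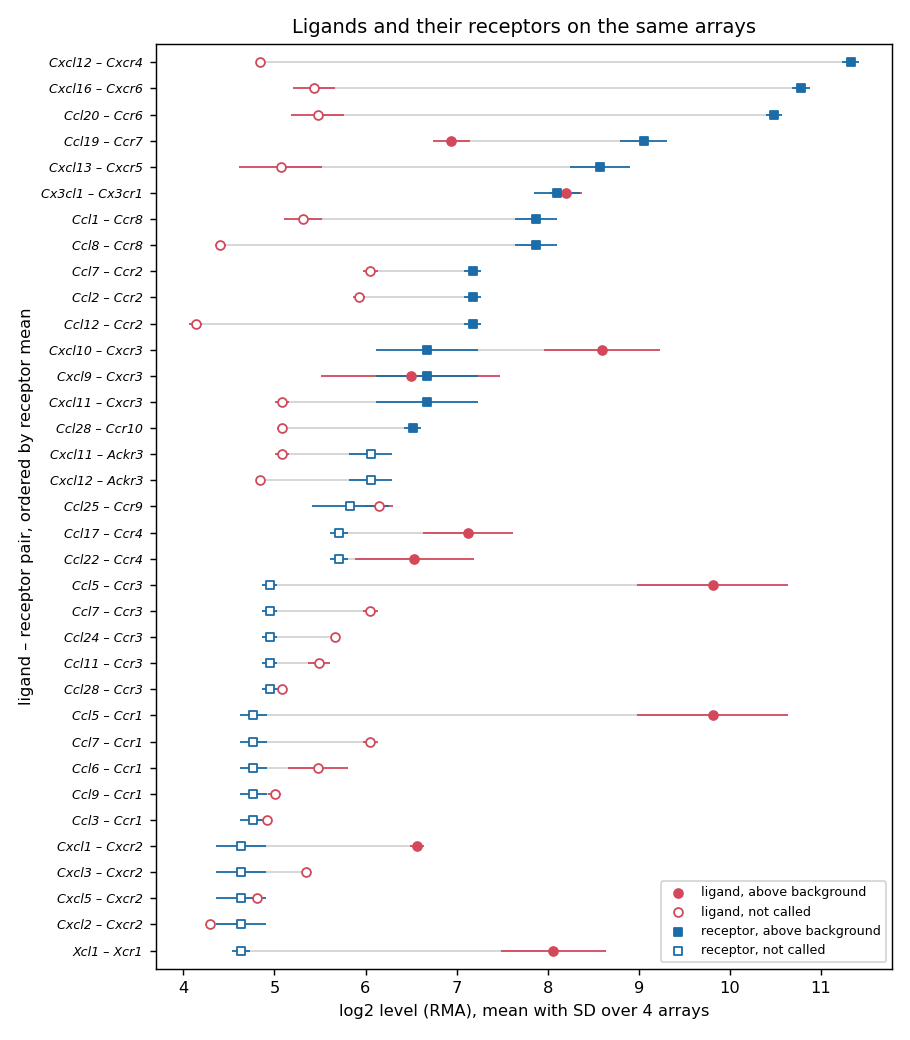
Mean log2 level with SD over 4 arrays of the ligand (circles) and the receptor (squares) in 35 known pairs, ordered by the mean of the receptor, with filled symbols for genes above background. At the top, Cxcr4, Cxcr6 and Ccr6 lie above 10.4 while their ligands are open circles, and at the bottom Xcl1 and Ccl5 are filled while Xcr1, Ccr1 and Ccr3 are open. Levels of different genes are not amounts of RNA that can be compared.

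Genes that carry or restrain the signals known to induce chemokines were called in 14 of 15 measured cases, beside 46.2% of all named genes. Among those called were the NF-kappaB inhibitor genes Nfkbia and Tnfaip3. Receptors for interferons were at 10.61 ± 0.14 (Ifngr1), 9.68 ± 0.27 (Ifngr2), 9.82 ± 0.29 (Ifnar2) and 8.33 ± 0.04 (Ifnar1), and the NF-kappaB genes Rela and Nfkb2 at 9.35 ± 0.21 and 9.23 ± 0.26. Myd88, an adaptor of Toll-like and interleukin-1 receptors, was at 7.60, 8.43, 7.63 and 8.49, higher on arrays 2 and 4 than on both others, as were Cxcl9 and Cxcl10. Myd88 was singled out after its values were seen. The TNF receptor gene Tnfrsf1a, at 6.13 ± 0.05, was not called.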

How the data were processed

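The authors deposited log2 levels, 1 for each probe set, computed by RMA per the submitters' processing notes. The sources used here give no version and no genome build. Scanner files were not used. Of 35556 probe sets, 21789 carry a single symbol in GEO's platform annotation, and 1621 with several, 7 of them naming other Ccl genes, were left unnamed. Symbols were updated by Entrez identifier (RefSeq, GRCm38.p6).

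Chemokine members, roles, pairs and lists were chosen with earlier results of these data known. Every member is accounted for; genes above background and the next 6 have values on every array, and of marker lists the 3 highest members are named (4 of the interferon list). Other list members (Oasl2, Eomes, Flt3, Itgax, Clec9a, Cdh5) and the per-array values of list members were chosen after they were seen. The detection test, one-sided with a smallest p of 0.000808, was run on all named genes and tested on simulated data. Alternatives used limma 3.58.1 (R 4.3.3), another background, the mean of probe sets, the median, quantile normalization, median centring, a filter on low genes and each array left out. The number of arrays limits precision. The calculations used Python 3.11.15 and pandas 2.3.3.

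In 7 members at least 2 arrays held exactly the same value, so their SD can be too small. Housekeeping genes were above background in 9 of 9 measured cases, beside 46.2% of all named genes.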

Additional observations from a re-analysis of the deposited data

Results flagged for a closer look

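In 70 sets of 4 values (the ligands, the receptors and the list means), the distance of the highest or lowest array from the nearest other, as a share of the whole range, exceeded 0.829 in 4, where chance gives about 5%. Cxcl5, which was not above background, was lowest on array 1, at 4.72 beside 4.83 on the other arrays, with a share of 0.985. Ackr3, an atypical receptor for Cxcl12 that was not called, was highest on array 2, at 6.41 beside 5.90 to 5.97, with a share of 0.862. Ackr4, an atypical receptor for Ccl19, Ccl20 and Ccl25 that was not called, was highest on array 1, at 5.41 beside 5.26, with a share of 0.995. Arrays 2 and 4 of Cxcl5 and arrays 3 and 4 of Ackr4 held exactly the same value, which the chance rate does not allow for. The mean of the T cell markers was highest on array 3, at 7.94 beside 7.69 to 7.71, with a share of 0.937.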

How the results depend on the processing

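Of the 10 ligands above background, 7 (Ccl5, Cxcl10, Cx3cl1, Xcl1, Ccl17, Ccl19 and Cxcl1) were called under all 15 alternatives, and the calls of Ccl22, Cxcl9 and Cxcl17 depended on single arrays or on the background chosen. With 1 array left out the count of ligands was 8 to 10 and the median SD of the ligands called with all arrays 0.405 to 0.56, beside 0.535. The rule of exceeding the background's 95th percentile on all arrays gave 11 ligands (54.4% of all genes), without Ccl22 and Cxcl9 and with Ccl2, Ccl7 and Ccl25, and limma's test against that percentile gave 12 (53.9%), without Cxcl9 and with the same additions. Limma's test against the median of background genes, a far lower line, called 31 ligands and 22 receptors, but also 89.2% of all genes. Olfactory receptor genes alone as background gave 8 ligands (43.1% of all genes), without Cxcl9 and Cxcl17. No paired analysis was possible because all 4 samples form 1 group.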
